A study of Mus musculus with 13 samples.

Results

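The junctions described here are those that the IgH bait break formed on the minus strand of the reference sequence around the bait. They are all lines of the 6 IgH libraries on chromosome 12 (mm9) with a junction from 114557038 to 114587038 and strand minus, a window of 30 kb around the highest peak of junctions near the bait. That position was chosen from the density of these same junctions, so the fact that junctions cluster in the window is not a finding. The rule held 573 of 6878 junctions of the IgH libraries and of 16455 in the whole series, namely 69, 113 and 60 in B-cell replicates 19, 21 and 23, and 96, 189 and 46 in T-cell replicates 19, 21 and 23. The same window held 3103 plus-strand junctions.

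The study asked how often breaks made by the I-SceI nuclease far apart on the same mouse chromosome, at IgH or at c-myc, join each other, and whether cell types differ in this. High-throughput genome-wide translocation sequencing was used, in which a primer near a fixed break, the bait, is extended into whatever sequence, the prey, that break has joined. The libraries came from splenic B cells activated with anti-CD40 and IL-4 (3 libraries) and from splenic T cells activated with ConcanavalinA and IL-2 (3 libraries). All 6 libraries carry the genotype IgH2-28xI, so both groups share the cassettes, and cell type and activation differ together. Nothing in the labels says whether replicates came from separate animals or cultures, so p-values measure only the spread between libraries, which may be technical. In all, 933, 1115 and 483 junctions were listed for B-cell replicates 19, 21 and 23, against 1253, 2707 and 387 for T-cell replicates 19, 21 and 23. Replicates 19 and 21 of both cell types came from 1 sequencing run and replicate 23 of both from another, by their read names, and median read length was 183 and 184 bases in replicate 23 against 214 to 257 bases in the others.

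As background, the heavy chain constant genes are each preceded by a switch region, a long repetitive stretch rich in G on the non-template strand and in the motif AGCT. In activated B cells the enzyme AID deaminates cytosines in transcribed switch regions, the resulting breaks are joined by end joining, and a downstream constant gene replaces C mu; anti-CD40 with IL-4 is the standard way to direct B cells to S gamma 1 and S epsilon. T cells do not switch. On mouse chromosome 12 the locus is transcribed from the minus strand, so that S gamma 1 is followed by the C gamma 1 exons toward lower coordinates and preceded by its promoter toward higher ones.

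The cassette allele was delimited from where alignments stop. In 11 plus-strand reads, 9 from B cells and 2 from T cells, the alignment ended at base 114568854 and the read went on with the opening bases of the bait itself. In 9 minus-strand reads, 3 from B cells and 6 from T cells, the alignment ended at base 114577038. Reads that went on there with other sequence set this point, and that sequence is not identified here. No line was aligned across the lower point by more than 20 bases on either side, and 1 line, in B-cell replicate 21, was aligned across the upper one. The 8183 bp between them, 114568855 to 114577037, are called the S gamma 1 stretch here; the deposited gene label of junctions inside it is Sg1. The bait therefore adjoins the lower flank and reads toward higher coordinates, and a minus-strand prey runs against the direction of the bait. In the reads that stop at the lower edge, the bait and not the stretch follows the flank. Positions and distances, also those inside or across the stretch, are thus those of the reference and not of the cassette allele. Which copy of chromosome 12 the stretch junctions joined was not tested. The sequences at both edges are shown on the minus strand, since they set the points from which distances are counted. The lower edge begins with base 114568854, and the upper edge ends with base 114577038.
Lower edge, chr12:114568795-114568854: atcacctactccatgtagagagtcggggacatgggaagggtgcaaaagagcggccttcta
Upper edge, chr12:114577038-114577097: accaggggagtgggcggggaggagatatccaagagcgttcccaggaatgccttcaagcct

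Some lines may not be separate joins. In 21 sets of 2 lines, 42 of 573 minus-strand junctions in all, lines of a library shared the far end of the prey and the read length while their junctions differed. These made up 13.8% of the junctions of T-cell replicate 21 and 0 to 6.25% in the other libraries. A further 2 junctions were found with the same prey and read coordinates in 2 libraries, 114568658 in B-cell replicates 19 and 21 and 114577706 in T-cell replicates 19 and 21. With 1 line kept per set, the share of junctions in the S gamma 1 stretch differed by 7.55 percentage points between B and T cells and that of blunt joins by 4.49. Without the lines shared between libraries the differences were 7.75 and 3.86 points, against 7.69 and 4.59 with all lines, and none of 13 measures changed direction either way. The stretch share could not have done so, since no T-cell junction lay in the stretch.

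Minus-strand junctions lay mainly below the cassette, on the side of the bait and of C gamma 1. The lower flank held 68.1%, 71.7% and 73.3% of them in B-cell replicates 19, 21 and 23, against 63.5%, 59.3% and 80.4% in T-cell replicates 19, 21 and 23. The T-cell libraries lay on both sides of the B-cell ones, with replicate 23 highest, so the groups overlapped. The means were 71.0% ± 2.67 in B cells and 67.7% ± 11.2 in T cells (SD, n = 3 each). On the plus strand the same flank held 2.67% to 3.79% of junctions in B cells and 1.18% to 2.23% in T cells. Strand and flank thus went together in every library: 66.7% of all minus-strand junctions lay in the lower flank and 97.3% of plus-strand junctions in the upper one, a contrast that is given without a test because the edges were set with these junctions in view.

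**Figure D1:**
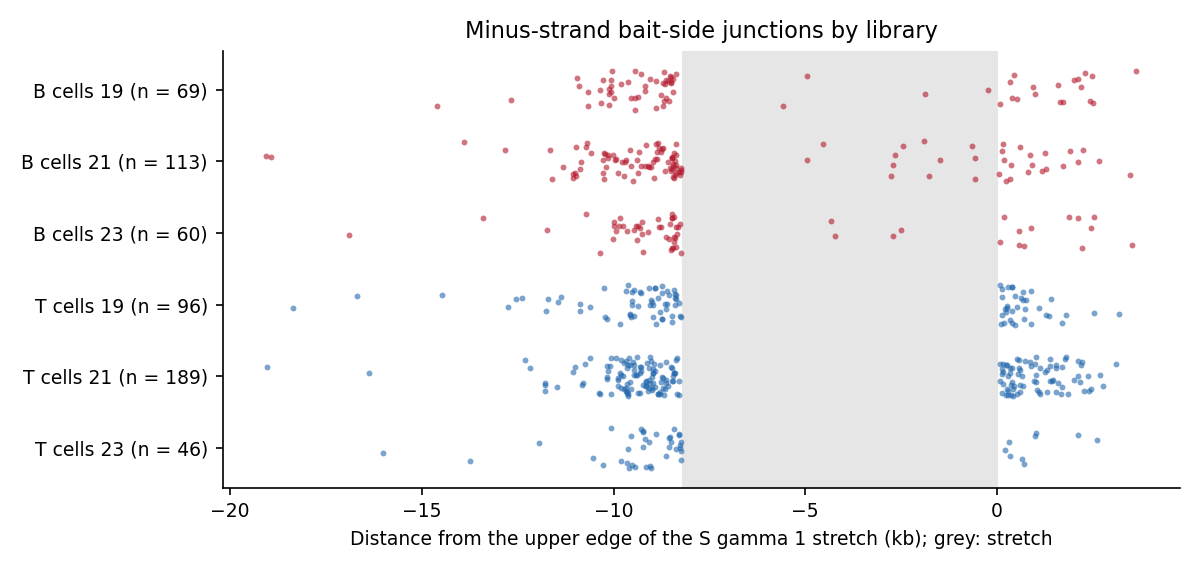
Each point is 1 minus-strand junction, placed along the x axis by its distance in kb from the upper edge of the S gamma 1 stretch (grey), with 1 row per library and random height within a row. The rows of all 6 libraries fill the flanks next to the grey stretch, and points inside it appear in the B-cell rows, with 4, 12 and 4 junctions, and not in the T-cell rows.

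The upper flank, toward the S gamma 1 promoter, took the rest in T cells. It held 26.1%, 17.7% and 20% of minus-strand junctions in B-cell replicates 19, 21 and 23, against 36.5%, 40.7% and 19.6% in T-cell replicates 19, 21 and 23. T-cell replicates 19 and 21 were above all B-cell libraries, while T-cell replicate 23 lay among them, so these groups overlapped as well. The means were 21.3% ± 4.33 in B cells and 32.3% ± 11.2 in T cells (SD, n = 3 each). As a share of all junctions of a library, the upper flank held 2.07% ± 0.366 in B cells and 2.65% ± 0.286 in T cells (SD, n = 3 each), again with overlap.

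The stretch itself held minus-strand junctions in B cells. Library counts were 4 of 69, 12 of 113 and 4 of 60 in B-cell replicates 19, 21 and 23, against 0 of 96, 0 of 189 and 0 of 46 in T-cell replicates 19, 21 and 23. In percent, B cells had 5.80 (95% Wilson interval 2.28 to 14), 10.6 (6.18 to 17.6) and 6.67 (2.62 to 15.9), and for the counts of 0 in T cells the upper Wilson limits were 3.85, 1.99 and 7.71, while 3 counts would be 3.13, 1.59 and 6.52. The intervals and limits cover counting error only. Every B-cell library was above every T-cell library, by 7.69 percentage points between the means (two-sided exact permutation test, p = 0.1, adjusted p = 0.3 over 12 tests). With 3 libraries a group no test of this kind can give a p under 0.1. Over the groups, 20 of 242 junctions (8.26%) in B cells against 0 of 331 in T cells, where 3 counts would be 0.906%, lay in the stretch; the lines that share ends, described with the positions, are counted singly in these sums. This contrast was known from earlier results of these data when it was measured here. The plus strand had 11 lines in the stretch, of which 9 lay within 20 bp of an edge and 2, both in B cells, farther inside.

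**Figure D2:**
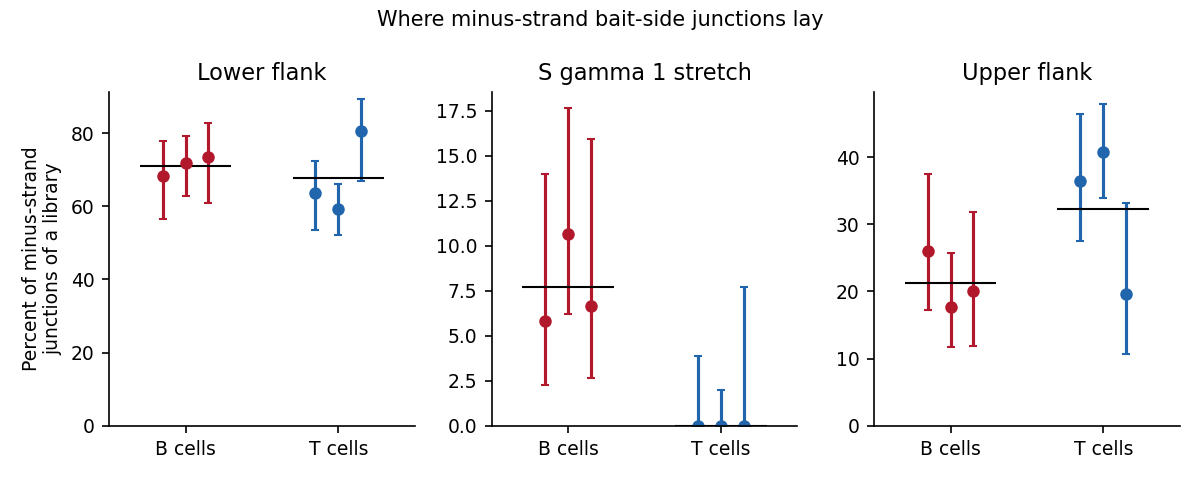
Points are libraries (replicates 19, 21 and 23 from left to right in each group), bars their 95% Wilson intervals and black lines group means, as percent of the minus-strand junctions of a library on the y axis, whose scale differs between panels. B and T cells overlap in both flanks, and in the stretch the B-cell libraries lie at 5.80% to 10.6% and the T-cell libraries at 0.

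Inside the stretch the 20 junctions ran from 114571453 to 114576811; the nearest to the lower edge lay 2.60 kb from it, and the nearest to the upper edge 227 bp. In B-cell replicate 19 they lay at 114571453, 114572074, 114575149 and 114576811. In B-cell replicate 23 they lay at 114572711, 114572813, 114574333 and 114574531. In B-cell replicate 21 they lay at 114572083, 114572503, 114574286, 114574335, 114574384, 114574580, 114575145, 114575266, 114575539, 114576374, 114576455 and 114576473. No position was used more than once.

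Of the 12 lines of B-cell replicate 21, 4 had the bait end at the same base of the read and shared the first 12 prey bases as read, while their positions stepped by 49, 49 and 196 bp. Across 364 bases of the same stretch, 95.3% were identical to the base 49 positions away, the offset with the highest identity between 20 and 100, so these steps are whole repeat units, and 3 of the 4 reads shared their far end. The read placed at 114574580 differs from the reference within those first bases. Another pair of lines, 114576455 and 114576473, shared a far end too. With lines that share ends counted once, B-cell replicates 19, 21 and 23 had 4, 8 and 4 junctions there, 16 in all. Positions inside the repeats are as the authors' alignment placed them. Neighbouring repeat units below the highest of these positions show how alike they are, with AGCT in capitals, on the minus strand as the reads run.
Unit at chr12:114574532-114574580: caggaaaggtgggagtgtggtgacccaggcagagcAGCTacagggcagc
Unit at chr12:114574483-114574531: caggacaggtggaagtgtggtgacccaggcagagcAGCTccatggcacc
Unit at chr12:114574434-114574482: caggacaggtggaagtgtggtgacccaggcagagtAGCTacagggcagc
Unit at chr12:114574385-114574433: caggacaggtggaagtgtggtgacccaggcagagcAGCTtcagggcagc

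Prey sequence in the stretch differed in composition from that of the flanks. Among junctions with at least 50 aligned prey bases, AGCT (its own reverse complement, so both strands at once) was in the first 50 bases of 18 of 20 in the stretch, 84 of 334 in the lower flank and 38 of 145 in the upper flank. G made up 40.1% of these bases in the stretch, 21.9% in the lower flank and 24.0% in the upper flank. The 20 of the stretch include the lines that share ends, counted singly here as well. Of all windows of 50 bases that could be read from the deposited prey references, 71.6% held AGCT in the stretch, where they come mostly from these junctions' own reads, 24.2% in the lower flank and 24.6% in the upper flank. The shares at junctions in the flanks, 25.1% and 26.2%, were thus near those of all windows. The first 50 prey bases of 1 junction per B-cell library and of the most used position in the lower flank are shown as examples, on the minus strand with AGCT in capitals. Each of them holds AGCT, the lower-flank one included, and the difference between stretch and flanks rests on the counts over all junctions.
B-cell replicate 19, chr12:114571404-114571453: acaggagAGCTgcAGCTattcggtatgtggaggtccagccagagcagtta
B-cell replicate 21, chr12:114575490-114575539: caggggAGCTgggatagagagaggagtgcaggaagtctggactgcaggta
B-cell replicate 23, chr12:114572764-114572813: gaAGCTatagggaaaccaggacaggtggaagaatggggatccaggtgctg
Lower flank, chr12:114568560-114568609: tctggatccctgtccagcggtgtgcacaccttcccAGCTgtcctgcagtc

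Position use was dispersed. The 573 minus-strand junctions fell on 528 positions, of which 44 held more than 1 junction, 35 were found in at least 2 libraries, 20 in both B and T cells, and 0 in 3 or more libraries. On the plus strand 3103 junctions fell on 1542 positions, and the most used of them, 114577038 at the upper edge, held 73. That was 2.35% of plus-strand junctions, against 0.524% of minus-strand junctions at their most used position. The strands differ in depth and no draw of equal size was made between them, so their counts of positions cannot be compared directly. The most used minus-strand position by mean share over libraries was 114568609, with 2 junctions in B-cell replicate 23, 1 in T-cell replicate 21 and 0 in the other 4 libraries. The next, 114568788, had 1 junction in B-cell replicate 23 and 1 in T-cell replicate 23, and 114567606 had 1 in B-cell replicate 19 and 1 in T-cell replicate 23. Of the 10 positions with the highest mean share, 8 lay in the lower flank and 2, 114577603 and 114579148, in the upper one, and none held more than 3 junctions. In a draw of 46 junctions, the size of the smallest library, 45.6, 45.7 and 44.8 distinct positions are expected in B-cell replicates 19, 21 and 23, against 45.8, 45.8 and 46.0 in T-cell replicates 19, 21 and 23. Every B-cell library was lower than every T-cell library, with a difference of -0.493 positions (exact permutation test, p = 0.1, adjusted p = 0.3), or -0.231 without B-cell replicate 23. The separation was lost with 1 line per far end and read length (-0.433 positions), with at least 50 aligned bases (-0.302) and in the upper 20 kb of the window (-0.377), and within the run of replicates 19 and 21 the difference was -0.154. Junctions that shared their position with another of the same library made up 4.37% ± 2.02 in B cells and 2.11% ± 2.12 in T cells (SD, n = 3 each), with overlap (exact permutation p = 0.3, adjusted p = 0.514).

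Most junctions of the flanks lay within 3000 bp of an edge of the stretch, and none within 40 bp. These edges are where alignments stop, and the break ends themselves were not placed. In the lower flank the median distance from the edge was 1179, 989 and 792 bp in B-cell replicates 19, 21 and 23, against 887, 1164 and 972 bp in T-cell replicates 19, 21 and 23. The means, 987 ± 194 bp in B cells and 1008 ± 142 bp in T cells (SD, n = 3 each), differed by less than the spread between libraries. Of 382 junctions in this flank, with all 6 libraries pooled, 349 lay within 3000 bp of the edge, 33 farther away and 0 within 40 bp. For that count of 0, 3 counts would be 0.785%, which covers counting error only. The nearest lay 52 bp from the edge, in B-cell replicate 21. These reads run away from the edge, so that the shortest alignment in the tables, 30 bases, sets no limit there.

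In the upper flank the median distance was 1681, 887 and 1386 bp in B-cell replicates 19, 21 and 23, against 479, 987 and 701 bp in T-cell replicates 19, 21 and 23. B cells averaged 1318 ± 401 bp and T cells 722 ± 255 bp (SD, n = 3 each), and B-cell replicate 21 lay below T-cell replicate 21, so the groups overlapped. These medians rest on 18, 20 and 12 junctions in B cells and on 35, 77 and 9 in T cells. The farthest was 3631 bp from the edge. Here minus-strand reads run toward the edge, and an alignment that stops at the edge needs a junction at least 30 bases away; the nearest lay at 60 bp. Plus-strand junctions of the same flank had 291 of 3018 within 40 bp of the edge.

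**Figure D3:**
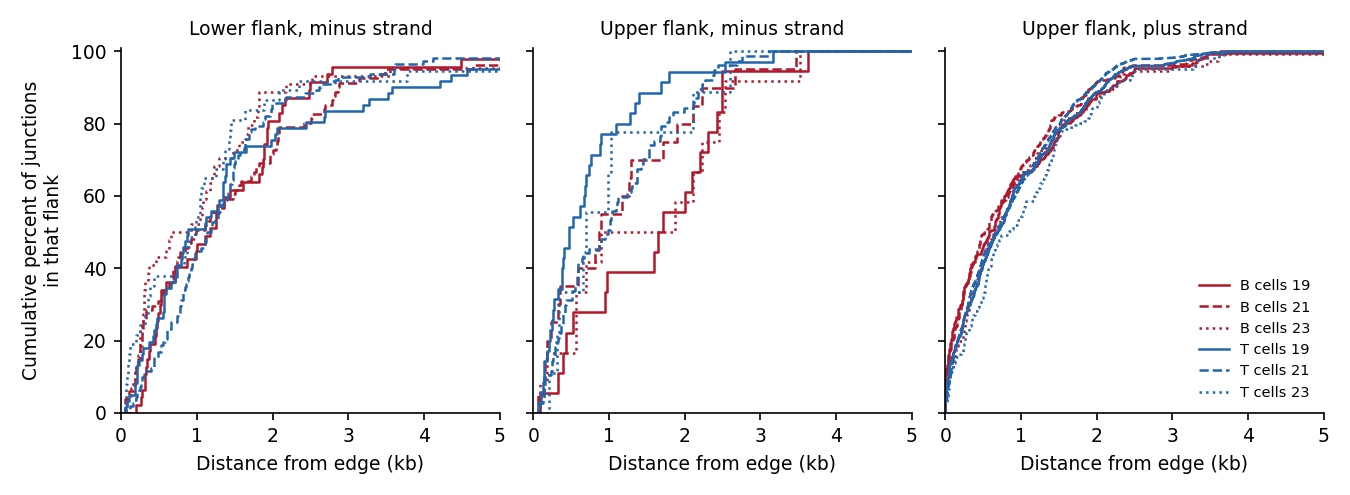
Lines are libraries (B cells red, T cells blue), the x axis is the distance from the edge of the stretch in kb, up to 5 kb, and the y axis the cumulative percent of the junctions in that flank. Lower-flank curves of B and T cells run across each other, and in the upper flank the T-cell curves of the minus strand rise earlier than those of B-cell replicates 19 and 23, where medians are 1386 and 1681 bp in B-cell replicates 23 and 19 against 479 to 987 bp in T cells.

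Counted from the most used position, 114568609, the share of junctions nearby was higher in every B-cell library. Within 100 bp of it lay 10.1%, 15.9% and 21.7% of minus-strand junctions in B-cell replicates 19, 21 and 23, against 8.33%, 5.82% and 6.52% in T-cell replicates 19, 21 and 23. The groups did not overlap, at a difference of 9.02 percentage points (exact permutation test, p = 0.1, adjusted p = 0.3). That position was picked from the same junctions, and 2 of the 3 at it were in B-cell replicate 23. The test therefore cannot decide whether B-cell junctions lie nearer to it. The difference was 3.91 points with overlap when 200 bp were counted, and -1.10 points with overlap from the nearer edge of the stretch. Junctions more than 1 kb from the position made up 58.5% ± 7.75 in B cells and 60.2% ± 10.9 in T cells (SD, n = 3 each, exact permutation p = 0.8, adjusted p = 0.96). Beyond 100 bp, the median distance was 1865 ± 358 bp and 2111 ± 1012 bp (SD, n = 3 each, exact permutation p = 0.7, adjusted p = 0.933) in B and T cells, and 61.7% ± 2.54 and 58.4% ± 3.84 lay at lower coordinates (SD, n = 3 each, exact permutation p = 0.3, adjusted p = 0.514). Distances from this position run across the 8183 bp of the stretch in the reference, so every upper-flank junction counted as more than 1 kb away. Stretch junctions did too, the nearest being 2.60 kb above the lower edge. The share beyond 1 kb and the median thus mix the split between flanks with distance inside a flank. The mean upper-flank share was 21.3% for B cells against 32.3% for T cells.

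Minus-strand junctions were a larger part of the bait window in B cells within each run, though not between all libraries. They made up 17.9%, 21.9% and 28.6% of the window's junctions in B-cell replicates 19, 21 and 23, against 13.2%, 11.7% and 21.4% in T-cell replicates 19, 21 and 23. B cells averaged 22.8% ± 5.40 and T cells 15.4% ± 5.23 (SD, n = 3 each), a difference of 7.36 percentage points with T-cell replicate 23 above B-cell replicate 19 (exact permutation p = 0.2, adjusted p = 0.48). Replicate 23 was the highest of both cell types, and the difference was 7.46 points within the run of replicates 19 and 21 and 7.18 points within that of replicate 23. Of all junctions of a library, the minus strand of the window held 7.40%, 10.1% and 12.4% in B-cell replicates 19, 21 and 23, against 7.66%, 6.98% and 11.9% in T-cell replicates 19, 21 and 23. These groups overlapped widely, with means of 9.98% ± 2.52 in B cells and 8.84% ± 2.66 in T cells (SD, n = 3 each, exact permutation p = 0.6, adjusted p = 0.9). The difference of 1.14 points was -0.0783 without B-cell replicate 23.

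**Figure D4:**
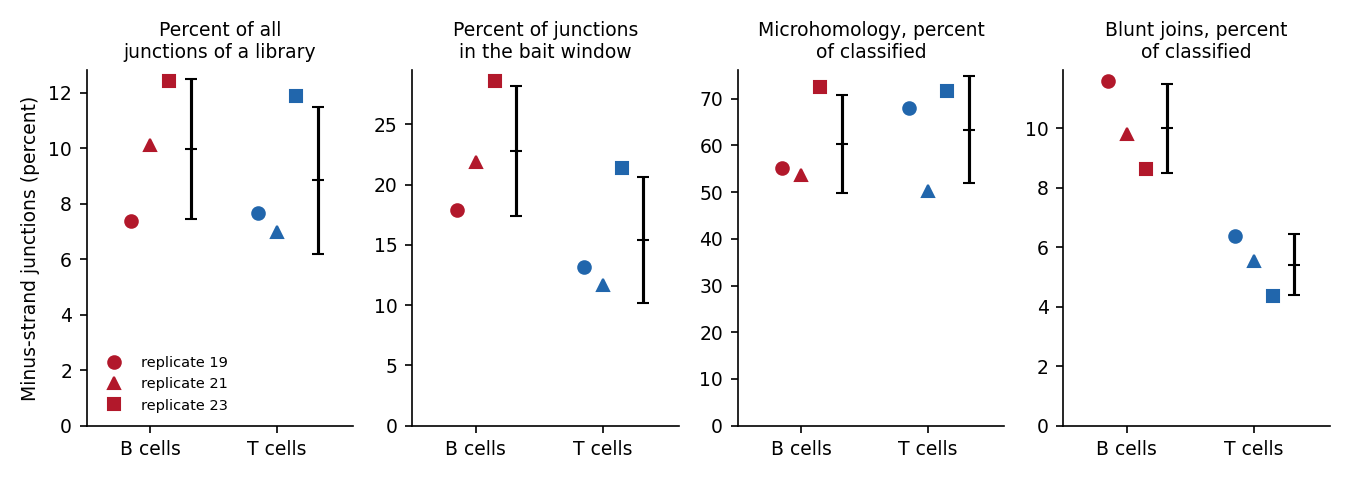
Symbols are libraries by replicate number, and black bars beside them the group mean with SD (n = 3). From left to right the y axes give minus-strand junctions as percent of a library and of the bait window, and joins with microhomology and blunt joins as percent of classified minus-strand junctions, where blunt joins lie at 8.62% to 11.6% in B cells and 4.35% to 6.38% in T cells.

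The joins themselves were classed by comparing where the bait sequence ends and where the prey begins on the read, for 560 of the 573 junctions. Microhomology, bases that match both sides, was found in 55.1%, 53.6% and 72.4% of classified junctions in B-cell replicates 19, 21 and 23, against 68.1%, 50.3% and 71.7% in T-cell replicates 19, 21 and 23. The groups overlapped, with means of 60.4% ± 10.5 in B cells and 63.4% ± 11.5 in T cells (SD, n = 3 each, exact permutation p = 1, adjusted p = 1). Of the 328 junctions with microhomology 277 had 1 to 3 bases, with a median of 2 and a maximum of 11. Inserted bases were found in 29.6% ± 9.38 in B cells and 31.2% ± 11.3 in T cells (SD, n = 3 each, exact permutation p = 1, adjusted p = 1), with a median of 8 bases. Inserted sequence includes cassette sequence, and 8 of 573 reads held a whole I-SceI site before the prey, 4 of them among the 20 junctions of the stretch. Lines that share ends are counted singly in these numbers.

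The share of blunt joins, with neither shared nor inserted bases, was higher in every B-cell library than in any T-cell library. They made up 11.6%, 9.82% and 8.62% of classified junctions in B-cell replicates 19, 21 and 23, against 6.38%, 5.52% and 4.35% in T-cell replicates 19, 21 and 23. No libraries overlapped, at a difference of 4.59 percentage points (exact permutation test, p = 0.1, adjusted p = 0.3). In the stretch 8 of 19 classified junctions were blunt, of which 4 are the reads in steps of repeat units, against 27 of 374 in the lower flank and 7 of 167 in the upper flank. Outside the stretch the blunt shares were 10.8%, 7% and 3.64% in B-cell replicates 19, 21 and 23, against 6.38%, 5.52% and 4.35% in T-cell replicates 19, 21 and 23. There the groups overlapped and the difference was 1.72 points (exact permutation p = 0.6).

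At the bounds of the rule, the lowest junction inside the window lay at 114557974 and the nearest below it at 114556042. The highest inside lay at 114580669, and the nearest above the window at 114592683. Of the 573 junctions 542 carried no gene label, 30 carried Sg1, and 1 carried a label that the tables do not explain. The 30 were the 20 of the stretch and 10 of the upper flank, 4 in B cells and 6 in T cells.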

How the data were processed

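The authors deposited 1 line per junction read, with its chromosome, strand, junction, alignment ends and read sequence, per the file headers. The submitters' processing notes name mm9 as the build. The aligner is not given in the sources used here. Ends count from 1 and starts from 0, as the values show, and positions are printed counted from 1. Values were computed with Python 3.11.15, pandas 2.3.3 and NumPy 2.4.6, and checked on simulated data.

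Lines were counted as deposited. Bait ends were found by matching reads to the bait sequence shared by the 6 libraries (118 bases), stepping over 1 mismatch where the next 6 bases matched. Group means of B and T cells were tested by exact permutation of the 6 libraries, two-sided, and p-values of the 12 measures were adjusted by Benjamini-Hochberg. Since 0.1 is the smallest possible p, no test could pass 0.05. Named positions were the 10 with the highest mean share, all those of the stretch and those at the bounds. The members, measures and rules were chosen with earlier results of these data known, and the edges and the distances from them after these files were seen. Sequences were read from deposited prey references, which gave 11537 positions of the window with 0 conflicts. Alternatives are in the closing section. Intervals rest on 46 to 189 junctions per library.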

Additional observations from a re-analysis of the deposited data

How the results depend on the processing

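Across 13 measures and 233 alternative values, 210 kept the direction of B cells minus T cells and 23 did not, and no test passed 0.05. Some of the 210 could not differ. With the replicate number as a block the difference of means is the same by construction. Leaving out lines with an I-SceI site in the prey reference removed 0 members and changed only the share of a library. The stretch share (5.45 to 9.68 points), blunt joins (1.72 to 5.97), the minus-strand share of the window (4.47 to 10.4), distinct positions, repeated positions and the share of the most used position kept their direction under all alternatives run. As no T-cell junction lay in the stretch, alternatives that only drop or merge lines could not reverse the stretch share. The stretch share was 5.45 points, with overlap, when the stretch was taken between the most used positions of both strands. With the upper 20 kb of the window the median distance difference was 186 bp and that of the lower-coordinate share -1.01 points. From the nearer edge of the stretch the differences were -1.10 points within 100 bp, 8.33 beyond 1 kb and 252 bp in the median, and from 10 kb below the upper bound 9.27 points beyond 1 kb. Insertions differed by 1.38 points with at least 50 aligned bases and 0.105 within the run of replicates 19 and 21. Microhomology differed by 0.0621 points without the stretch and 0.311 with exact bait matches. Within the run of replicate 23 the differences were 2.17 points beyond 1 kb, 564 bp in the median, -3.22 for lower coordinates and 0.675 for microhomology. The cause was not tested in any of these. Counting 1 line per far end and read length left -7.50 bp in the median. The edge, run, repeated-line, bait-match and stretch alternatives were chosen after seeing the data. Without single libraries the ranges were -0.0783 to 2.66 points for the share of a library, -7.95 to 2.48 beyond 1 kb, -799 to 192 bp in the median, -9.56 to 1.17 for microhomology and -5.23 to 4.91 for insertions. With the replicate number as a block the differences were unchanged, at 7.69 points for the stretch and 7.36 for the window share (exact sign-flip permutation p = 0.25 for both, the smallest possible); same-numbered libraries correlated at 0.212, -0.259 and 0.709 in 500 bp bins, so the numbers were not taken as pairs.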

Other observations

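Some reads held further sequence between the aligned prey and the adapter. At least 20 such bases were found in 13 of 340 minus-strand reads of the lower flank, 1 of 17 of the stretch and 23 of 151 of the upper flank in which the adapter was found. In 8 of these 23 the alignment ended at 114577038, the upper edge of the stretch. The 1 line aligned across that edge, a minus-strand junction at 114577216 in B-cell replicate 21, went on for 64 bases into the stretch.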
